A study of Homo sapiens with 4 samples.

Results

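BASP1 and 6 genes for related membrane and growth cone proteins (GAP43, MARCKS, MARCKSL1, STMN1, STMN2 and STMN3) were followed by RNA-Seq in cells with and without HELZ, called WT and Helz-null. The 7 genes come from a table of 27011 genes. BASP1 was selected on its change in these same libraries, being a target of the study's RT-qPCR, and the other 6 were chosen by kinship with results of these data already known. Values of the 7 genes in the contrast of Helz-null with WT are for that reason a description, given with no p-value, and nothing is read from whether a member was called. There were 4 libraries, 2 of WT HEK293T cells and 2 of Helz-null HEK293T cells, none of them treated. HEK293T cells are an established line derived from human embryonic kidney. The Helz-null cells are a single line made from it with Cas9, carrying a short deletion in an exon of HELZ, so that the loss of HELZ and other differences between this line and its parent cannot be told apart. Total counts were 65005666 and 42342295 in WT replicates 1 and 2, and 41745401 and 70464140 in Helz-null replicates 1 and 2. Adjusted p-values given for other genes set the difference between the groups against the spread between replicate libraries. They do not cover the spread between independently made lines.

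BASP1, GAP43, MARCKS and MARCKSL1 (also called MRP) are acidic proteins held at the inner face of the plasma membrane by a lipid anchor and a basic effector domain. This domain binds calmodulin and the lipid PIP2, and its phosphorylation by protein kinase C releases it, which links these proteins to the actin cortex of growth cones, the motile tips of growing axons. Stathmins (STMN1 to STMN4) bind tubulin dimers and promote microtubule disassembly. STMN1 is found in most dividing cells, whereas STMN2, STMN3 and STMN4 are known mainly from neurons. BASP1 also acts in the nucleus as a cosuppressor of the transcription factor WT1, and is known as a gene repressed by MYC.

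The RT-qPCR primers for BASP1 are shown because they mark which part of the mRNA that assay reads. Each matched 1 place in the genome exactly.
BASP1 forward: tggatttccaagatccgcgt
BASP1 reverse: tggacaagctaagtgggctc
On GRCh37 (hg19) the forward primer lies at chr5:17276296-17276315 on the plus strand and the reverse primer at chr5:17276562-17276581 on the minus strand. Both sit in exon 2 of the 2 exons of the canonical BASP1 transcript, within the 3′ UTR. The amplicon of 286 bases runs from 287 to 572 bases past the stop codon and spans no intron, while the 2 exons are separated by 57397 bases.

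HELZ, the edited gene, was lower in both Helz-null libraries. It had 6268 and 4261 counts in WT and 1528 and 2641 counts in Helz-null libraries. As CPM (TMM-normalized counts per megacount of library) these were 102 ± 2.90 in WT and 37.4 ± 0.639 in Helz-null cells (SD, n = 2), which gave a log2FC of -1.44 (SE 0.042). The libraries thus followed their labels. Across the 10978 genes that the authors selected for their comparison, 1524 genes (13.9%) were called up in Helz-null cells and 1701 (15.5%) were called down, or 29.4% in either direction, by edgeR's quasi-likelihood test at an FDR under 0.005. Of these calls, 47.3% were up, and 61.5% were up when counts were scaled by library size only. The median log2FC of all tested genes was -0.00091.

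BASP1 was expressed at a low level in WT cells and at a higher level in Helz-null cells. WT replicates 1 and 2 had 9.49 and 9.27 CPM (596 and 380 counts), and Helz-null replicates 1 and 2 had 27.6 and 25.7 CPM (1140 and 1793 counts). Both Helz-null libraries lay above both WT libraries, and replicates differed far less than the groups. The groups did not overlap, in either direction, in 7753 of the 10978 tested genes. The mean was 9.38 ± 0.158 CPM in WT, against 26.7 ± 1.32 CPM without HELZ (SD, n = 2). The log2FC was 1.50 (SE 0.076, 95% interval 1.35 to 1.65), a 2.83-fold higher level. BASP1 was number 16 by log2FC among the tested genes, of which 26 were more than 2-fold higher. In these bulk samples, more cells expressing BASP1 and more BASP1 RNA per cell cannot be told apart. GAPDH, the reference gene of the RT-qPCR, had 2770 and 2700 CPM in WT and 2390 and 2390 CPM in Helz-null libraries, a log2FC of -0.19 (SE 0.025, adjusted p = 4.42e-08 by edgeR). Relative to GAPDH, the log2FC of BASP1 was 1.69. The other RT-qPCR targets, SPARC and TENM1, had log2FC values of 1.62 (SE 0.039) and 1.09 (SE 0.048).

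**Figure D1:**
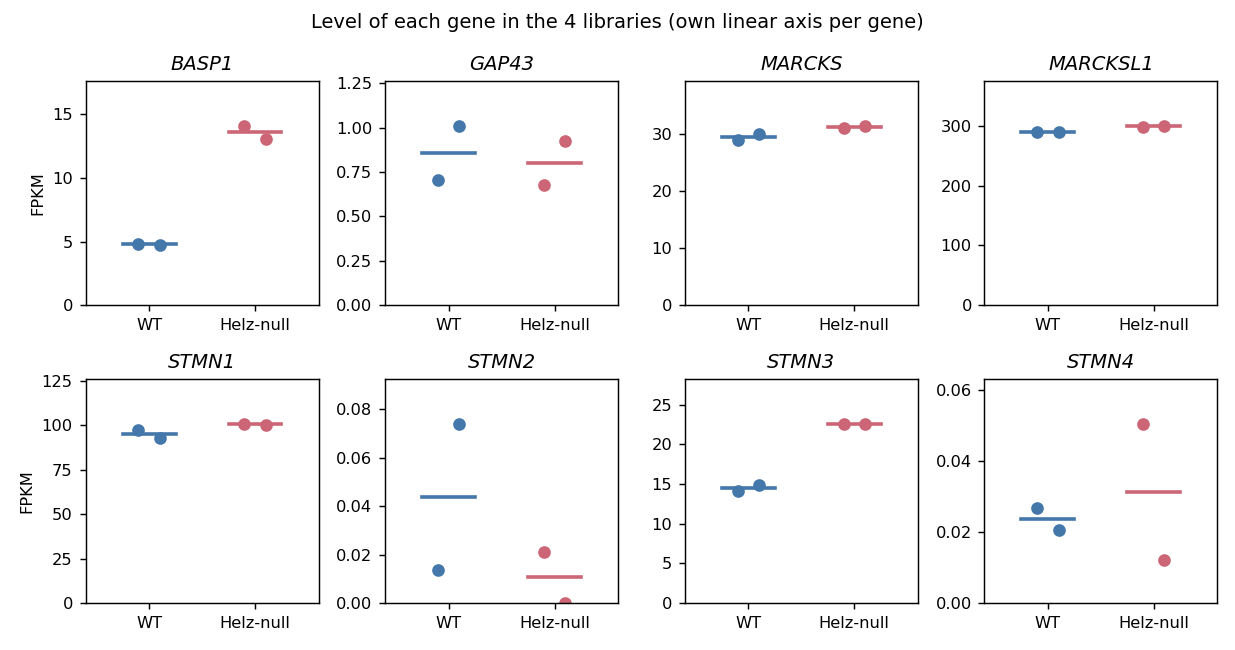
FPKM of the 7 genes and STMN4 in 2 WT (blue) and 2 Helz-null (red) libraries, each gene on its own linear axis from 0, with points for libraries and lines for group means. BASP1 is at 4.84 and 4.72 in WT and at 14.1 and 13.1 in Helz-null libraries, while GAP43, STMN2 and STMN4 overlap between the groups.

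MARCKS, the founding member of its family and a major substrate of protein kinase C, showed a much smaller difference. Its CPM were 125 and 129 in WT and 134 and 136 in Helz-null libraries. The groups did not overlap, as in most tested genes. The log2FC was 0.09 (SE 0.033). MARCKSL1, a smaller relative of MARCKS, had 453 and 452 CPM in WT and 465 and 468 CPM in Helz-null libraries. Its log2FC of 0.04 (SE 0.027) had a 95% interval from -0.01 to 0.10.

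GAP43, the classical growth cone marker, was expressed at a low level and was not among the tested genes. It had 93 and 87 counts in WT and 59 and 136 counts in Helz-null libraries, or 1.48, 2.12, 1.43 and 1.95 CPM. The groups overlapped, and replicate 2 was above replicate 1 in both. In a fit over all genes with at least 1 count, its log2FC was -0.03 (SE 0.20, 95% interval -0.42 to 0.36).

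The stathmins divided in a like manner. STMN3, also known as SCLIP, was higher in both Helz-null libraries, with 38.4 and 40.7 CPM in WT and 61.7 and 61.5 CPM in Helz-null libraries. This gave a log2FC of 0.64 (SE 0.047, 95% interval 0.55 to 0.73), a 1.56-fold higher level. The groups did not overlap, as in most tested genes. STMN1, the ubiquitous stathmin, had 351 and 334 CPM in WT and 365 and 362 CPM in Helz-null libraries. Its log2FC was 0.08 (SE 0.029), and ran from 0.05 without WT replicate 2 to 0.12 without WT replicate 1. These small values moved with the scaling. By library size only, MARCKS and STMN1 were at 0.12 each and MARCKSL1 at 0.08, and after a GC correction they were at 0.11, 0.11 and 0.01. Relative to GAPDH, the log2FC was 0.28 in MARCKS, 0.24 in MARCKSL1, 0.28 in STMN1 and 0.84 in STMN3.

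STMN2, known from neurons under the name SCG10, was near the floor of detection, with 2 and 7 counts in WT and 2 and 0 counts in Helz-null libraries. Summed over a group, this is 9 counts in WT (95% Poisson interval 4.12 to 17.1) and 2 in Helz-null cells (0.242 to 7.22), and a difference was not detectable at this depth. STMN4, the remaining stathmin, had 4 and 2 counts in WT and 5 and 2 in Helz-null libraries. The floor of 3 counts corresponds to between 0.043 and 0.0732 CPM, and intervals and floors cover counting error only. In WT replicate 1, 642 genes had exactly 1 count and 807 had exactly 2, and 2 was the more frequent in every library. The library totals also exceed the mapped reads stated for the study, as they would with both mates of a pair counted. The Poisson intervals treat each count as independent, and are then too narrow.

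Of the 7 genes, 5 were among the tested genes and 2, GAP43 and STMN2, were not. BASP1 and STMN3 were called up (2 of the 5 tested members, beside 13.9% of all tested genes). Of the tested members, 0 were called down (beside 15.5%), and 3 were not called. By library size only, and also after the GC correction, 4 were called up, with MARCKS and STMN1 added. Over all tested genes, 2109 were called up by library size only and 1583 after the GC correction, beside 1524 in the main fit. Because the genes were chosen with this contrast known, nothing is read from these counts.

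**Figure D2:**
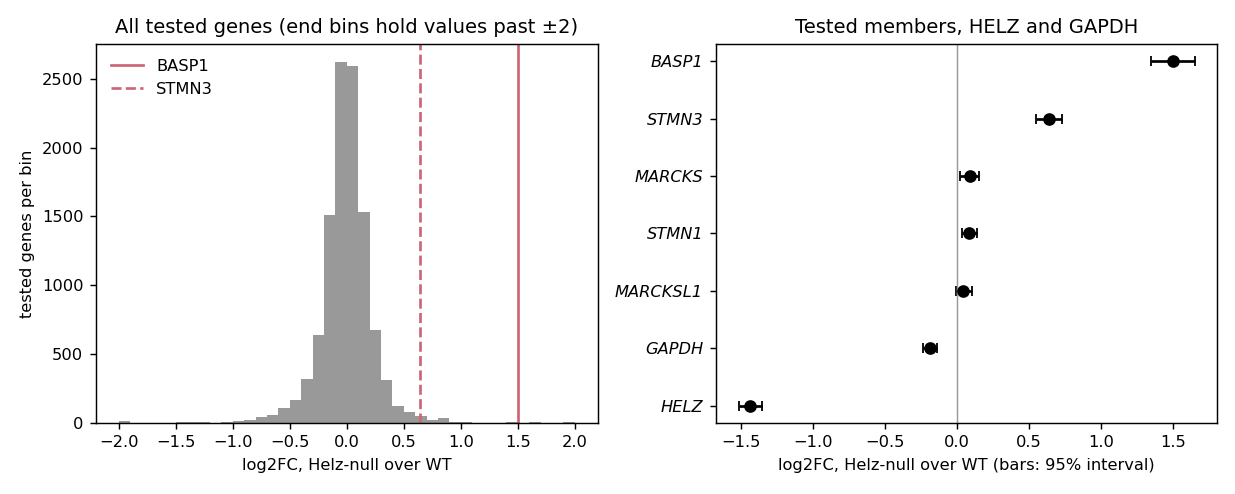
Left, a histogram of log2FC (Helz-null over WT) of all tested genes in bins of the log2 scale, with lines at BASP1 and STMN3. Right, log2FC with 95% intervals of the tested members, HELZ and GAPDH, where BASP1 stands at 1.50, STMN3 at 0.64 and the other members between 0.04 and 0.09.

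Levels of different genes were compared per length, as FPKM from the deposited gene widths. In WT cells the order was MARCKSL1 (290 ± 0.607 FPKM), STMN1 (95.1 ± 3.32), MARCKS (29.5 ± 0.659), STMN3 (14.5 ± 0.573), BASP1 (4.78 ± 0.0804) and GAP43 (0.856 ± 0.215; SD, n = 2). These neighbours differed by more than their spread, whereas STMN2 and STMN4 did not. The order was the same in Helz-null cells, where STMN3 was at 22.5 ± 0.0329 and BASP1 at 13.6 ± 0.673 FPKM. In WT cells MARCKSL1 stood at the 98.3 percentile of tested genes by FPKM, STMN1 at 93.3, MARCKS at 74.8, STMN3 at 53.9 and BASP1 at 20.1.

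The summed FPKM of BASP1, GAP43, MARCKS and MARCKSL1 was 325 in each WT library, against 344 and 345 without HELZ. MARCKSL1 made up 89.3% and 89.0% of this sum in WT and 86.6% and 86.8% in Helz-null libraries. BASP1 made up 1.49% and 1.45% in WT and 4.09% and 3.79% in Helz-null libraries, and remained a minor member by mRNA level. MARCKSL1 exceeded BASP1 60.0-fold and 61.3-fold in FPKM in WT libraries and 21.2-fold and 22.9-fold in Helz-null libraries. The summed FPKM of the 4 stathmin genes was 112 and 108 in WT and 124 and 123 in Helz-null libraries. STMN3 took 12.6% and 13.8% of it in WT and 18.2% and 18.3% in Helz-null libraries, and STMN1 held nearly all of the rest.

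The members share short coding sequences. On the canonical transcripts, the CDS ranged from 447 bases in STMN1 to 996 bases in MARCKS, all below the median of 1370 bases over tested genes. They encode between 149 and 332 residues. The CDS of BASP1 was 681 bases long and 69.5% G and C, at the 97.8 percentile, and that of MARCKS reached 74.7%, at the 99.6 percentile. The GC content of the 3′ UTR was 39.4% in BASP1 and 62.8% in STMN3 (41.1 and 96.7 percentile). The 3′ UTR was 934 bases in BASP1, 1626 in STMN3 and 2895 in MARCKS, the longest of the 7.

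BASP1 lies at chr5:17065707-17276952 on the plus strand of GRCh37. BASP1-AS1, a non-coding gene on the opposite strand, overlaps it. Under its earlier name LOC285696 it had 0 counts in WT libraries and 7 in all in Helz-null libraries (95% Poisson interval 2.81 to 14.4). Whether counting used strand is not stated, so reads from such a pair cannot be told apart. The pseudogene BASP1P1 had 0 counts in every library. STMN1 and MARCKSL1 also have processed pseudogenes, and how reads shared with them were counted is not stated, which leaves their levels uncertain.

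Of the nearest tested genes beside BASP1, MYO10, the motor that carries cargo to filopodia tips, was called up, with a log2FC of 0.36 (SE 0.044, adjusted p = 1.02e-08 by edgeR). Its CPM were 54.6 and 55.0 in WT and 72.8 and 67.9 in Helz-null libraries. GUSBP1, on the other side at a distance of 4064990 bases, had a log2FC of 0.04 (SE 0.095), and was above 2 FPKM in Helz-null replicate 1 only. STMN3 lies at chr20:62271058-62289035 on the minus strand, and its outermost annotated start is 128 bases from RTEL1, a DNA helicase gene that points away from it. RTEL1 was called down, with a log2FC of -0.21 (SE 0.051, adjusted p = 0.001 by edgeR), and lost its call without Helz-null replicate 2 (-0.16) and with DESeq2. GMEB2, on the other side of STMN3, had a log2FC of -0.03 (SE 0.060).

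MARCKSL1 (chr1:32799440-32801834, minus strand) ends 204 bases from the end of HDAC1, a histone deacetylase gene with a log2FC of 0.02 (SE 0.028). MARCKS (chr6:114178524-114184652, plus strand) lies 69540 bases from HDAC2, which was called down at a log2FC of -0.29 (SE 0.029, adjusted p = 1.45e-10 by edgeR). LAMA4, the laminin gene on its other side, had a log2FC of 0.35 (SE 0.073, adjusted p = 0.000163 by edgeR) and lost its call without WT replicate 1 (0.29). STMN1 (chr1:26210672-26233482, minus strand) stands between PAQR7, at a log2FC of 0.07 (SE 0.098), and PAFAH2. PAFAH2 was called down at -0.31 (SE 0.085, adjusted p = 0.00241 by edgeR), a call lost without WT replicate 1 (-0.28) or either Helz-null replicate (-0.27 and -0.37), with DESeq2, and when scaled by library size only (-0.28). TSSK3, on the other side of MARCKSL1, had a log2FC of -0.32 (SE 0.20), which ran from -0.59 without Helz-null replicate 1 to -0.01 without Helz-null replicate 2, and was not called.

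The neighbours of the low members were tested although these members were not. Beside GAP43, QTRT2, a subunit of a tRNA-modifying enzyme, had a log2FC of -0.20 (SE 0.039, adjusted p = 4.52e-05 by edgeR), which was not called without Helz-null replicate 2 (-0.17). B4GALT4, a galactosyltransferase gene on its other side, had -0.05 (SE 0.066). Beside STMN2, ZC2HC1A had a log2FC of -0.17 (SE 0.11) and HEY1, a Notch target gene, had -0.07 (SE 0.031), and neither was called. Within 1 Mb of the members, 1 of 3 tested genes was called up and 0 down around BASP1, 5 of 31 up and 3 down around STMN3, 7 of 30 up and 5 down around MARCKSL1, 2 of 24 up and 2 down around STMN1, 1 of 6 up and 0 down around STMN2, and 0 of 1 up and 1 down around MARCKS. The shares among all tested genes were 13.9% up and 15.5% down. No gene was tested within 1 Mb of GAP43.

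The 5 tested genes whose centred log2 CPM lay nearest to that of BASP1 over the 4 libraries were CXCL12, SPARC, PLEKHA4, RIPPLY3 and HLA-DMA, at root mean square distances of 0.0426, 0.0748, 0.0788, 0.113 and 0.115. They encode a chemokine, a secreted matricellular protein, a phosphoinositide-binding protein, a transcriptional corepressor and an antigen-loading protein. CXCL12, the nearest, had 4.35 and 4.61 CPM in WT and 13.0 and 12.3 CPM in Helz-null libraries. Since likeness to BASP1 chose them, their log2FC values of 1.47 to 1.67 follow from the choice. All but SPARC were above 2 FPKM in Helz-null libraries only.

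The partners and regulators of these proteins were described from 8 lists, which together held 141 tested genes besides the members. Of these, 40 were called up (28.4%, beside 13.9% of all tested genes) and 8 down (5.67%, beside 15.5%), with a median log2FC of 0.079 beside -0.00091. The lists were written with earlier results of these data known, so these shares are not independent evidence of a direction. The authors' selection of tested genes used FPKM. By FPKM from the deposited widths, 172 tested genes were above 2 FPKM in Helz-null libraries only, 102 in WT libraries only and 39 in no library, and a gene above it in 1 group may have entered through the group where it was high. Of the list genes, PRKCB, NAV1, NRCAM and RTN1 were above 2 FPKM in Helz-null libraries only, so their calls up may follow from this selection. The other 137 list genes were above 2 FPKM in both groups, and 36 of them were called up. Among all tested genes above 2 FPKM in both groups, 1445 of 10665 were called up. In the fit over all genes with at least 1 count, which uses no such selection, 42 of 163 list genes were called up (25.8%, beside 8.49% of all 20904 genes) and 12 down (7.36%, beside 9.7%). The authors' selection kept 10978 genes in all and 141 of the list genes, so the 20904 genes hold a larger share of weakly expressed ones. The difference from 8.49% is for that reason not compared with the difference from 13.9%. The 4 genes were called up in the fit over all genes too, but from the same counts, so this is no separate test. When single libraries were left out, the group concerned kept a single library, and the number of list genes called changed. Without either Helz-null replicate, calls fell in number over all tested genes as well. A call lost in such a fit cannot be taken as particular to that gene. A test for a change beyond 1.2-fold was run with edgeR's glmTreat, again at an FDR under 0.005. Such a test is stricter than a cut-off on the fold change, so genes above 1.2-fold can go uncalled. It left 2 membrane, 2 microtubule, 1 actin and 1 protein kinase C gene called up. Out of all lists, it left 1 actin and 1 stathmin kinase gene called down. Scaling by library size only moved the median log2FC of all tested genes to 0.032 and that of the list genes to 0.11, so the small medians of single lists depend on the scaling. Of the list genes named here, PLCB4, METAP1, PAK1, MAPT and SYP were called by edgeR and not by DESeq2.

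**Figure D3:**
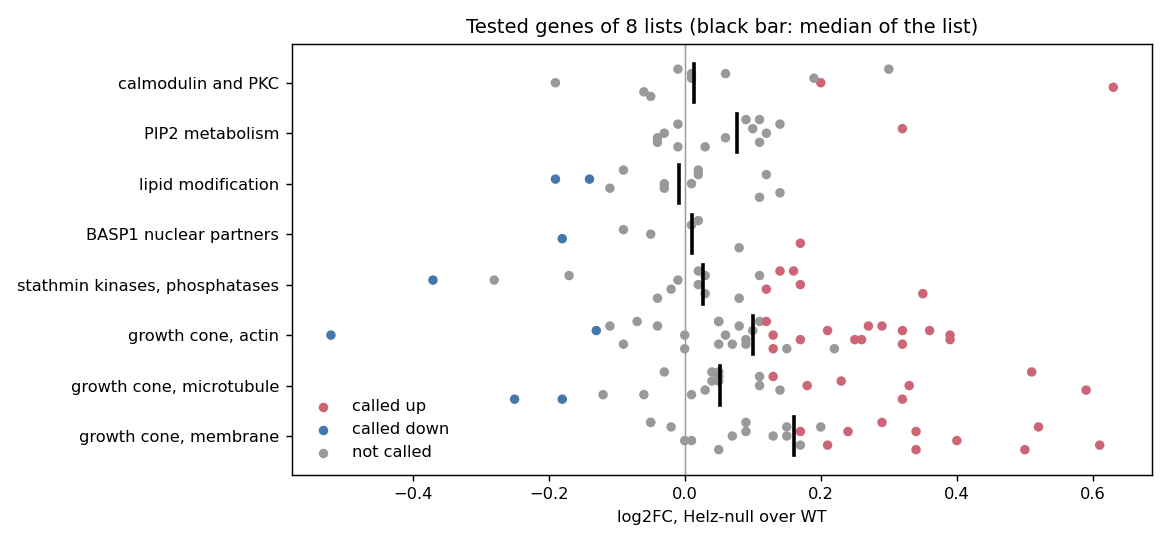
log2FC (Helz-null over WT) of the tested genes of 8 lists, 1 point per gene, coloured by call (red up, blue down, grey not called), with a black bar at the median of each list. The medians run from -0.0077 for lipid modification to 0.16 for membrane proteins of the growth cone.

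Of the genes for calmodulin and protein kinase C, which bind or phosphorylate the effector domain, 2 of 11 tested genes were called up, 0 down, and the median log2FC was 0.014. The median was 0.047 by library size only and 0.073 after the GC correction, which also gave 1 call down, and 4 genes of the list were called up in the fit over all genes with at least 1 count. PRKCB, a calcium-dependent protein kinase C, had 1.68 and 1.64 FPKM in WT and 2.58 and 2.56 FPKM in Helz-null libraries, a log2FC of 0.63 (SE 0.075). PRKCA, the other one called, had 0.20 (SE 0.046, adjusted p = 0.000608 by edgeR) and lost its call without WT replicate 1 (0.18) or either Helz-null replicate (0.20 each). The list had 1 gene called up without WT replicate 1 or without Helz-null replicate 2, and 3 without WT replicate 2. CALM3, the most abundant of the list, had a log2FC of 0.01 (SE 0.027).

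For enzymes that make or cleave PIP2, 1 of 14 tested genes was called up and 0 down, at a median log2FC of 0.077. That gene, PLCB4, a phospholipase C, had a log2FC of 0.32 (SE 0.084, adjusted p = 0.00215 by edgeR). Its call was lost without WT replicate 1 (0.27), Helz-null replicate 1 (0.32) or Helz-null replicate 2 (0.31). Without WT replicate 2, 4 genes of this list were called up, and 2 when scaled by library size only. PIP5K1A, a kinase that makes PIP2 and the most abundant of the list, had a log2FC of -0.04 (SE 0.030).

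Enzymes that attach or remove the lipid anchors had 0 of 12 tested genes called up and 2 down, at a median log2FC of -0.0077, which was 0.026 when scaled by library size only and 0.017 after the GC correction. By library size only, 2 were called up and 1 down, and 1 was called down with DESeq2, after the GC correction, without WT replicate 2 or without Helz-null replicate 2. ZDHHC3, a palmitoyltransferase, had a log2FC of -0.19 (SE 0.038, adjusted p = 0.000113 by edgeR), a call lost without Helz-null replicate 1 (-0.14), when 0 genes of the list were called down. METAP1, which removes the first methionine before myristoylation, had -0.14 (SE 0.036, adjusted p = 0.00188 by edgeR). It lost its call without WT replicate 2 (-0.10) or either Helz-null replicate (-0.13 and -0.14), and when scaled by library size only or corrected for GC content (-0.10 each). METAP2, the most abundant of the list, had a log2FC of -0.03 (SE 0.029).

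Among nuclear partners of BASP1 and genes tied to it through WT1 or MYC, 1 of 7 tested genes was called up and 1 down, at a median log2FC of 0.011, which was 0.044 by library size only. SMARCA4, the ATPase of a chromatin remodelling complex, had a log2FC of 0.17 (SE 0.029, adjusted p = 4.4e-06 by edgeR). PHB2, a prohibitin and the most abundant of the list, had -0.18 (SE 0.028, adjusted p = 9.77e-07 by edgeR). WT1 itself was not called, at a log2FC of 0.08 (SE 0.090), with 3.84 and 3.28 FPKM in WT and 3.91 and 3.71 FPKM in Helz-null libraries.

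Of kinases and phosphatases that act on stathmins, 5 of 17 tested genes were called up and 1 down, at a median log2FC of 0.027, which was 0.060 by library size only and 0.086 after the GC correction. With DESeq2, after the GC correction, or with libraries thinned to the smallest, 3 were called up, and 2 were called down with edgeR's own filter on low counts (filterByExpr) in place of the authors' selection, in the fit over all genes with at least 1 count, or with counts divided by 2. CDK5, a kinase active in neurons, had a log2FC of 0.35 (SE 0.045, adjusted p = 2.73e-08 by edgeR), and UHMK1, which binds and phosphorylates stathmin, had -0.37 (SE 0.032, adjusted p = 1.54e-12 by edgeR). PAK1, PRKACA and PPP1CA, the last the most abundant of the list, were called up at 0.17, 0.16 and 0.12. All 3 calls were lost without Helz-null replicate 2 (0.13, 0.15 and 0.14), after which 1 gene of the list was called up. Without Helz-null replicate 1, 3 were called up, and without WT replicate 1, 2 were called down. The call of PAK1 was also lost without WT replicate 2 (0.15), or with libraries thinned to the smallest (0.15), and that of PPP1CA without Helz-null replicate 1 (0.10) or after the GC correction (0.09).

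Actin regulators of the growth cone had 14 of 34 tested genes called up and 2 down, at a median log2FC of 0.10. The genes called up numbered 20 by library size only, and 1 in the test for a change beyond 1.2-fold. Only 1 was called down with DESeq2, when scaled by library size only, or in the test for a change beyond 1.2-fold. Both numbers also changed with single libraries left out. The largest difference was a decrease, in ENAH, which extends actin filaments at filopodia tips, with a log2FC of -0.52 (SE 0.028, adjusted p = 1.68e-18 by edgeR). WASF3, an activator of branched actin assembly, had 0.39 (SE 0.039, adjusted p = 8.7e-11 by edgeR), COBL, an actin nucleator, had 0.39 (SE 0.068, adjusted p = 1.3e-05 by edgeR), and MYO10 had the value given above. CFL1, the most abundant of the list, was not called, at a log2FC of 0.08 (SE 0.027), and was called without WT replicate 2 (0.09) and when scaled by library size only (0.11).

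Microtubule proteins of the growth cone had 7 of 22 tested genes called up and 2 down, at a median log2FC of 0.052, and 3 called up and 1 down without Helz-null replicate 2. Without WT replicate 1, 3 were called down, and 4 with filterByExpr or in the fit over all genes with at least 1 count. The median was 0.085 by library size only and 0.079 after the GC correction. In the test for a change beyond 1.2-fold, 2 were called up and 0 down. NAV1, a neuron navigator, had 1.94 and 1.80 FPKM in WT and 2.83 FPKM in both Helz-null libraries, a log2FC of 0.59 (SE 0.058). CRMP1, a collapsin response mediator, had 0.51 (SE 0.071, adjusted p = 1.73e-07 by edgeR). MAPT, which encodes tau, had 0.33 (SE 0.079, adjusted p = 0.00065 by edgeR), and its call was lost without WT replicate 2 (0.29) or Helz-null replicate 2 (0.34). TUBB2B, a beta-tubulin, had 0.32 (SE 0.045, adjusted p = 1.62e-07 by edgeR). MAPRE1, a plus-end binding protein and the most abundant of the list, had -0.03 (SE 0.030).

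Membrane proteins of the growth cone had 10 of 24 tested genes called up and 0 down, at a median log2FC of 0.16. By library size only 13 were called up, and in the test for a change beyond 1.2-fold only 2. With filterByExpr, or in the fit over all genes with at least 1 count, 1 was called down. NRCAM, a cell adhesion molecule, had 1.47 and 1.79 FPKM in WT and 2.44 and 2.47 FPKM in Helz-null libraries, a log2FC of 0.61 (SE 0.088), and RTN1, a reticulon, had 1.89 and 1.97 FPKM in WT and 2.74 and 2.78 FPKM in Helz-null libraries, a log2FC of 0.52 (SE 0.10). NCAM1, another adhesion molecule, had 0.40 (SE 0.051, adjusted p = 3.19e-08 by edgeR). PALM, a lipid-anchored protein of the inner membrane face, had 0.50 (SE 0.070, adjusted p = 1.87e-07 by edgeR). FLOT2, a membrane raft protein and the most abundant of the list, had 0.21 (SE 0.033, adjusted p = 2.68e-06 by edgeR).

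Markers were counted to place these values among cell types. Of 8 kidney progenitor genes, 7 exceeded 3 counts in every library, and their summed FPKM was 66.1 and 65.9 in WT and 65.9 and 63.3 in Helz-null libraries, led by SIX2. Within this sum EYA1 was called down, at a log2FC of -0.55 (SE 0.079, adjusted p = 2.71e-07 by edgeR), while LHX1, outside the tested genes, had 0.98 (SE 0.14) and PAX2 had 0.35 (SE 0.12) in the fit over all genes with at least 1 count. The 4 epithelial genes summed to 56.8 and 57.4 FPKM in WT and 45.6 and 45.8 in Helz-null libraries, led by KRT18. Both that were tested were called down, KRT8 at -0.98 (SE 0.070, adjusted p = 7.13e-15 by edgeR) and KRT18 at -0.16 (SE 0.042, adjusted p = 0.00163 by edgeR). The call of KRT18 was lost without WT replicate 1 (-0.15) or either Helz-null replicate (-0.17 and -0.16), with DESeq2, and when scaled by library size only (-0.13). EPCAM had -1.52 (SE 0.30) in the fit over all genes with at least 1 count, whereas CDH1 had 0.0091 (SE 0.12). The 12 neuronal genes summed to 67.7 and 67.2 FPKM in WT and 57.4 and 57.4 in Helz-null libraries. NEFL was the most abundant of them, and ELAVL3, ELAVL4 and DCX were at or under 3 counts in every library. The 6 glial genes summed to 4.59, 4.48, 4.59 and 4.85 FPKM, led by OLIG2, with S100B at or under 3 counts. The lower neuronal sum was that of INA, an intermediate filament gene at 22.1 ± 1.31 FPKM in WT and 10.6 ± 0.57 FPKM in Helz-null cells (SD, n = 2), which was called down at a log2FC of -1.05 (SE 0.049). SYP, for a synaptic vesicle protein, was called up at 0.29 (SE 0.080, adjusted p = 0.00301 by edgeR), a call lost without WT replicate 2 (0.24) or Helz-null replicate 1 (0.21), with DESeq2, and after the GC correction (0.26). In the fit over all genes with at least 1 count, RBFOX3 had 0.68 (SE 0.14). Its WT replicates stood apart, at 3.5 and 2.12 CPM, against 4.26 and 4.95 CPM in Helz-null libraries. In the same fit MAP2, with 59 and 52 counts in WT and 10 and 12 in Helz-null libraries, had -2.43 (SE 0.40). In that fit the neuronal genes called were RBFOX3 and SYP up and INA and MAP2 down. NEFL had 27.3 and 29.0 FPKM in WT and 27.2 and 27.4 in Helz-null libraries, so the neuronal genes did not move together. The part of these marker differences in the values of BASP1 and STMN3 was not tested.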

How the data were processed

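The authors deposited read counts per gene, for which rRNA reads were taken out by Bowtie2, the remaining read pairs were aligned by TopHat2 on hg19, and QuasR counted reads in genes. Versions, annotation, strand use and the counting of mates are not given in the sources used here. A deposited comparison holds the authors' log2 values and p-values from edgeR, of which only the list of 10978 genes was used. Counts were scaled by TMM and tested with edgeR 4.0.16 in R 4.3.3 (estimateDisp, glmQLFit, glmQLFTest, genotype only), called at an FDR under 0.005 after Benjamini-Hochberg adjustment. FPKM used the deposited gene width. Positions came from GENCODE on GRCh37, with 10379 tested genes matched by symbol, 517 by a synonym and 82 unmatched. The members and lists were chosen with earlier results of these data known. Named genes were the members, STMN4, HELZ, GAPDH, SPARC, TENM1, up to 4 called genes with the largest absolute log2FC and the most abundant gene of each list, the 5 genes nearest BASP1 in pattern, neighbours on the genome, and markers by list. WT1 was named after its values were seen. Alternatives covered DESeq2 1.42.0, scalings, gene filters, thresholds, a replicate block, depth, GC content and single libraries left out.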

Additional observations from a re-analysis of the deposited data

How the results depend on the processing

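The log2FC of BASP1 lay between 1.45 and 1.55 with single libraries left out and was 1.69 relative to GAPDH, a setting that raised the log2FC of every tested member. Members called up numbered 4 when scaled by library size only, after the GC correction and at an FDR under 0.05. Over all tested genes, 2109, 1583 and 2371 were called up at these settings. The test for a change beyond 1.2-fold, which is stricter, left 217 genes up and 318 down, and 6 list genes up and 2 down. An FDR under 0.05 gave 2371 genes up and 2506 down, and 59 list genes up and 15 down. List genes called down numbered between 5 and 10 with single libraries left out, and the cause was not tested. The labels do not say whether replicate numbers pair the libraries. Deviations of same-numbered libraries had a correlation of 0.0343 over 10978 genes, which cannot show how the libraries were prepared. With the replicate block, 1677 genes were called up and 1841 down, and the log2FC of BASP1 was 1.51. Some genes that were not called changed sign, and the cause was not tested. CALM3 was at -0.02 after the GC correction and METAP2 at 0.03, and METAP2 was at 0.01 and GMEB2 at 0.00 when scaled by library size only. With single libraries left out, log2FC ranged from 0.00 to 0.02 in CALM3, from -0.09 to 0.20 in GUSBP1, from -0.02 to 0.17 in PAQR7 and from -0.11 to 0.06 in GMEB2. The range was -0.10 to -0.04 in HEY1 and -0.06 to 0.00 in MAPRE1. Depth limits STMN2 and STMN4, whose counts are few. GAP43 was low too, and its replicate 2 exceeded replicate 1 by log2 0.52 in WT and 0.45 in Helz-null cells. What limits GAP43 was not tested.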
